A study of Mus musculus with 11 samples.

Results

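The gene-poor interval between Gli2 and Ralb, with Inhbb near its right edge, was examined in capture Hi-C maps of a region of mouse chromosome 1. It was taken as the 38 bins of 10 kb that cover chromosome 1 from 120980001 to 121360000, and its members were the 741 pairs of these bins out of the 88410 bin pairs of a map. The members were selected on measured values, since the edges were set at insulation minima of the same maps, so the existence of the domain and the place of its edges are given below as a description and are not tested. Of the members, 630 join bins at least 30 kb apart, and the values below rest on these.

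Capture Hi-C ligates DNA ends that lie close together in crosslinked nuclei and enriches the products of 1 region, so that each read pair counts a contact between a pair of loci. All tissue came from mouse embryos of embryonic day 9.5, of the cross c57bl6.J X 129S6.sv per the strain field. The series title concerns the lncRNA Maenli and the homeobox gene engrailed-1 (En1) in limb development. The 4 groups were wild-type forelimb (3 libraries), forelimb of mutants with an inserted stop cassette (2 libraries), wild-type forebrain (3 libraries) and wild-type midhindbrain boundary (3 libraries). The libraries of a group had been merged into 1 map, so no value has a replicate error, and every interval below is a 95% interval of counting error alone. Where the cassette sits is not given in the labels, and neither is the number of embryos or mutant lines. In their titles, the wild-type forelimb libraries bear a CD1 tag that their strain field lacks, and lower library numbers than the other 8. Strain and library series cannot be told apart from the group in any comparison with that map. Bins are named below by their start in kb, so that bin 121350 runs from 121350001 to 121360000, and the groups as wild-type limb, stop-cassette limb, forebrain and midhindbrain.

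Chromosomes fold into domains whose loci meet each other more often than loci outside. In the loop extrusion model, cohesin reels in chromatin until it meets bound CTCF, which leaves insulated edges and often a focal contact between both edges of a domain, seen as a bright corner in the map. Gli2, left of the interval, encodes a zinc finger transcription factor of Hedgehog signalling. Inhbb encodes the beta-B subunit of activins and inhibins, and Ralb, to the right, a small GTPase. In the RefSeq order of genes (GRCm38.p6, used for order and not for position, since the submitters' processing notes name mm9), 11 gene models lie between Gli2 and Ralb, of which 8 are lncRNA genes, 2 are pseudogenes and 1, Inhbb, is protein-coding. No other protein-coding gene lies there, so the interval is gene-poor apart from Inhbb.

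The promoters of Gli2 and Inhbb are shown because these are the 2 protein-coding genes that the interval is named for. Each run is the 250 bases before the start of the gene, 5′ to 3′ on the minus strand on which both genes lie, from RefSeq (GRCm38.p6, chr1:119053620-119053869 for Gli2 and chr1:119422249-119422498 for Inhbb), and both genes were matched by symbol. These positions are not in the coordinates of the maps, and the promoters were not assigned to bins. Capitals mark CCCTC, the core letters of the CTCF motif, or its reverse complement GAGGG.
Gli2: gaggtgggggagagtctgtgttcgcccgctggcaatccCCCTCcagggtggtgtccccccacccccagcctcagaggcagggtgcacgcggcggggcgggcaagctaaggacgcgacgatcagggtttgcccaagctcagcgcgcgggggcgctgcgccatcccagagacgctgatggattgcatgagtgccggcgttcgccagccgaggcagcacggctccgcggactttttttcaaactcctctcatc
Inhbb: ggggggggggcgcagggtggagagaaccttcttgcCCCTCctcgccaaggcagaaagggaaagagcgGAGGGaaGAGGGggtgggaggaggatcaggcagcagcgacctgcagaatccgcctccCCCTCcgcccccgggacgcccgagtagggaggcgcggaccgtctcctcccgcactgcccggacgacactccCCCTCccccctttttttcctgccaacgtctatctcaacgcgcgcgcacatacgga
The Gli2 window held CCCTC 1 time. The Inhbb window held CCCTC 3 times and GAGGG 2 times. Such a short string is common, as 60.5% of the 32851 promoter windows of that length had it on either strand, and a match is a description of letters and not a binding site. Both windows were rich in G and C, at 67.2% for Gli2 and 68.0% for Inhbb against a median of 52.4% over all windows. They held 22 and 21 CG dinucleotides, where the median window held 6.

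The interval was well covered. It took 7.19% of the 8823849 contacts of the wild-type limb map, 7.20% of 7662227 in stop-cassette limb, 7.57% of 9489482 in forebrain and 7.58% of 9523316 in midhindbrain. At 30 kb or more it held 288850, 200433, 293276 and 289166 contacts in the same order. At all distances it held 634589, 551613, 718047 and 722066, so the stop-cassette map had the smallest share at 30 kb or more. No member pair was empty in any map, and the thinnest member at that distance had 67 contacts, in stop-cassette limb. Knight-Ruiz (KR) balancing scales the raw counts by 1 factor for each bin and gives all bins equal sums. A lower level inside the interval is therefore met by a higher level elsewhere. Levels are given as observed over expected, where the expected value is the mean KR signal of all bin pairs of the same map at the same distance.

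Contacts inside the interval rose above the distance mean with distance between the bins, in all 4 maps. From 30 to 90 kb the interval was close to the regional mean, at 1.005 times expected in wild-type limb (0.9995 to 1.010), 0.990 in stop-cassette limb (0.985 to 0.996), 1.01 in forebrain and 1.02 in midhindbrain. From 200 to 370 kb it stood at 1.62 in wild-type limb (1.60 to 1.63), 1.47 in stop-cassette limb (1.45 to 1.49), 1.78 in forebrain (1.77 to 1.80) and 1.73 in midhindbrain (1.72 to 1.75). In this far band 169 of the 171 pairs exceeded the distance mean in wild-type limb, 165 in stop-cassette limb, 170 in forebrain and all 171 in midhindbrain. Such counts, here and for the corner below, were not made over all pairs of the map at these distances. The excess of the interval thus lay in its long contacts. Mean levels were lowest in the stop-cassette map and next lowest in the wild-type limb map at every distance from 70 to 370 kb.

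**Figure D1:**
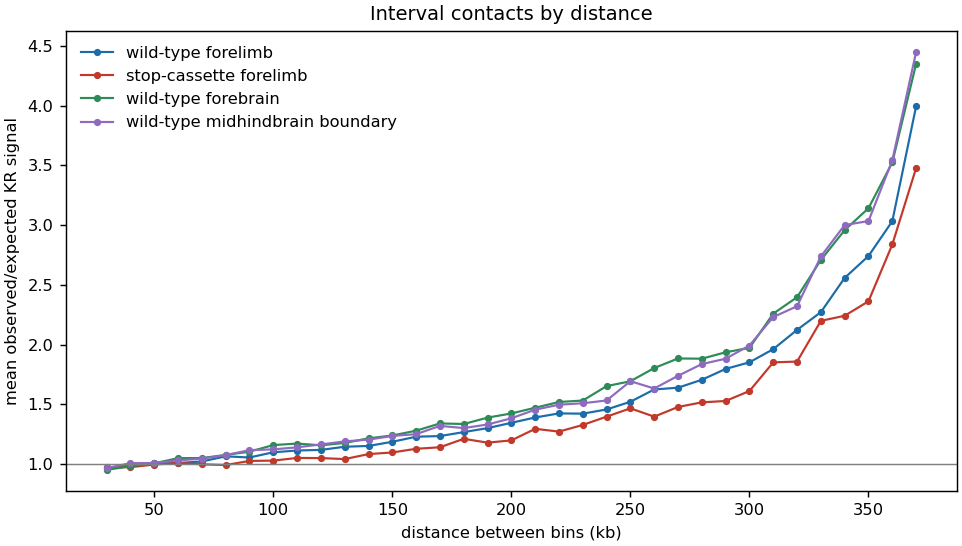
Mean observed/expected KR signal of the interval's bin pairs against the distance between the bins in kb, from 30 to 370 kb, 1 line per map; the number of pairs falls from 35 at 30 kb to 1 at 370 kb. All 4 lines climb from near 1 at short distance, and from 70 kb on the stop-cassette line is lowest, the wild-type limb line next and the brain lines highest.

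The same pattern appeared when the bins were split by position into 13 left, 12 middle and 13 right bins. Within the left block the level was below the distance mean, from 0.939 in stop-cassette limb to 0.963 in midhindbrain. Within the right block it was from 0.931 in stop-cassette limb to 0.983 in midhindbrain, and within the middle block from 1.01 in forebrain to 1.04 in wild-type limb. Contacts between the left and right blocks were the enriched ones, at 1.63 in wild-type limb, 1.49 in stop-cassette limb, 1.78 in forebrain and 1.73 in midhindbrain. The corner, where the first 5 bins meet the last 5, was higher still, at 2.41 in wild-type limb (2.35 to 2.47), 2.18 in stop-cassette limb (2.11 to 2.24), 2.76 in forebrain (2.70 to 2.82) and 2.72 in midhindbrain (2.66 to 2.79). All 25 corner pairs exceeded the distance mean in every map.

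**Figure D2:**
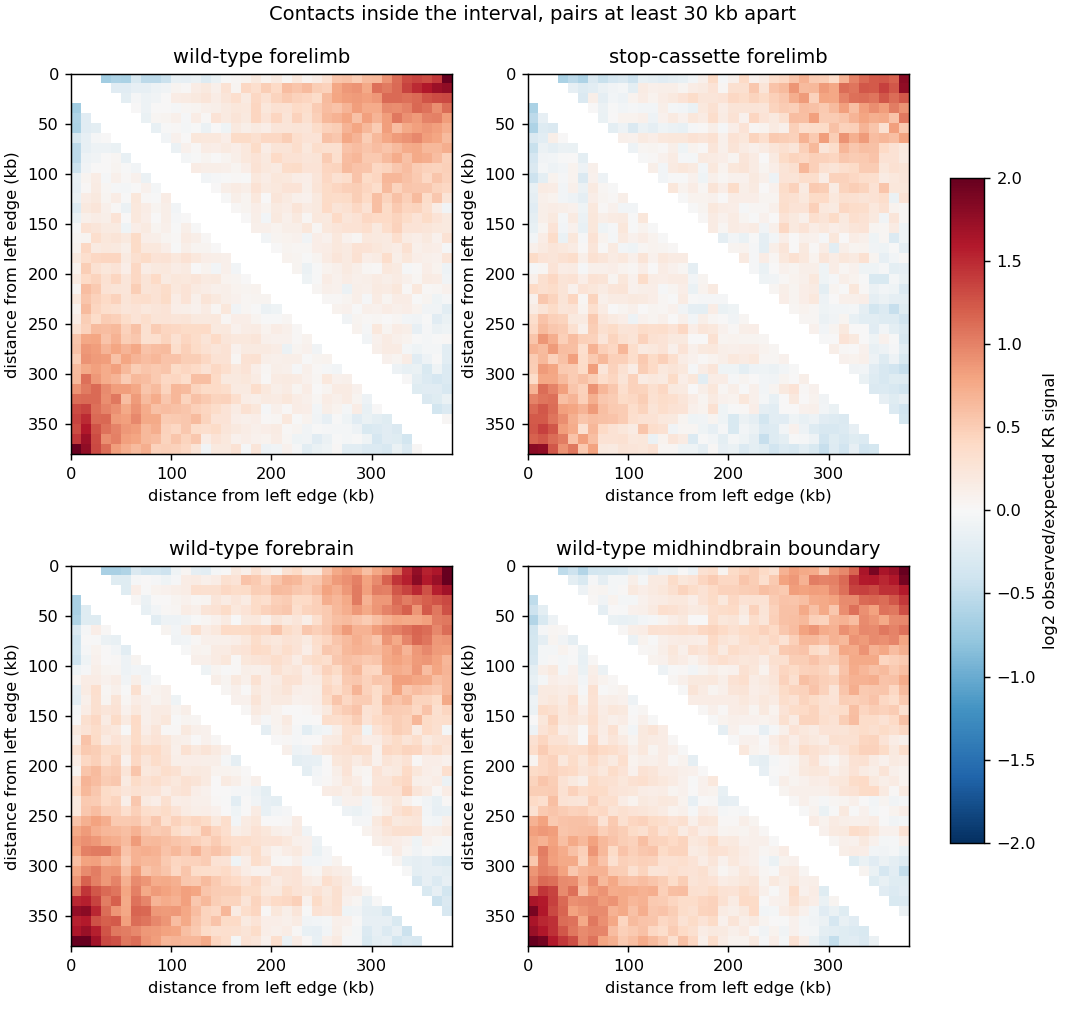
Log2 observed/expected KR signal of every bin pair of the interval at 30 kb or more, 1 panel per map, both axes in kb from the left edge. White marks the pairs left out near the diagonal; the darkest red lies in the corner that joins both edges, and pale blue lies near the edges at short distance.

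The corner held the strongest single contacts. The pair with the highest mean joined the first and last bins of the interval, 120980 and 121350, 370 kb apart. It had 330 contacts in wild-type limb, or 3.99 times expected (3.56 to 4.43), and 204 in stop-cassette limb, or 3.48 times (3.0 to 3.95). In forebrain it had 340 contacts and a level of 4.35 (3.89 to 4.81), and in midhindbrain 340 contacts and 4.45 (3.98 to 4.92). From low to high the order was stop-cassette limb, wild-type limb, forebrain and midhindbrain, and the intervals of neighbours in that order overlap. The other 4 of the 5 highest pairs also joined 1 of the first 2 bins with a bin from 121320 to 121350.

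Of those 4, the pair 120990 and 121340 stood at 2.36 in stop-cassette limb (2.02 to 2.69) against 3.28 in wild-type limb (2.95 to 3.60), 3.31 in forebrain and 3.03 in midhindbrain, and its stop-cassette interval lies below those of the other maps. The pair 120980 and 121320 stood at 2.56 in wild-type limb (2.23 to 2.89) and 2.35 in stop-cassette limb (2.01 to 2.69), below the 3.40 of forebrain (3.02 to 3.78) and the 3.73 of midhindbrain (3.32 to 4.14). For this pair the limb maps lie apart from the brain maps. At the other end, the 3 lowest pairs all joined the first bin with bins 30 to 50 kb away: with 121010, for example, 120980 had 739 contacts and 0.615 times expected in wild-type limb, 0.648 in stop-cassette limb, 0.640 in forebrain and 0.703 in midhindbrain. The first bin thus made the most enriched far contact of the domain and its least enriched near contacts.

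Seen from the first 2 bins together, contact rose along the interval and peaked in a plateau at and just past its right edge. The level was 0.764 at 121020 in wild-type limb, 1.23 at 121170, 2.18 at 121300 and 3.70 at 121350. It stayed at 3.83 at 121370 and 3.33 at 121380 and was down to 2.42 at 121390. The brain maps had a plateau of like width and greater height, at 4.18 for 121370 in both (3.89 to 4.46 in forebrain, 3.88 to 4.47 in midhindbrain), and the stop-cassette map was at 3.59 there (3.28 to 3.90). The right anchor of the corner contact thus spanned the bins 121350 to 121380 in all 4 maps, of which only the first is a member. Averaged over 3 by 3 bins, the peak fell on 120990 and 121360 in each of the 4 maps, at 3.31 in wild-type limb, 3.15 in stop-cassette limb, 3.75 in forebrain and 3.72 in midhindbrain.

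**Figure D3:**
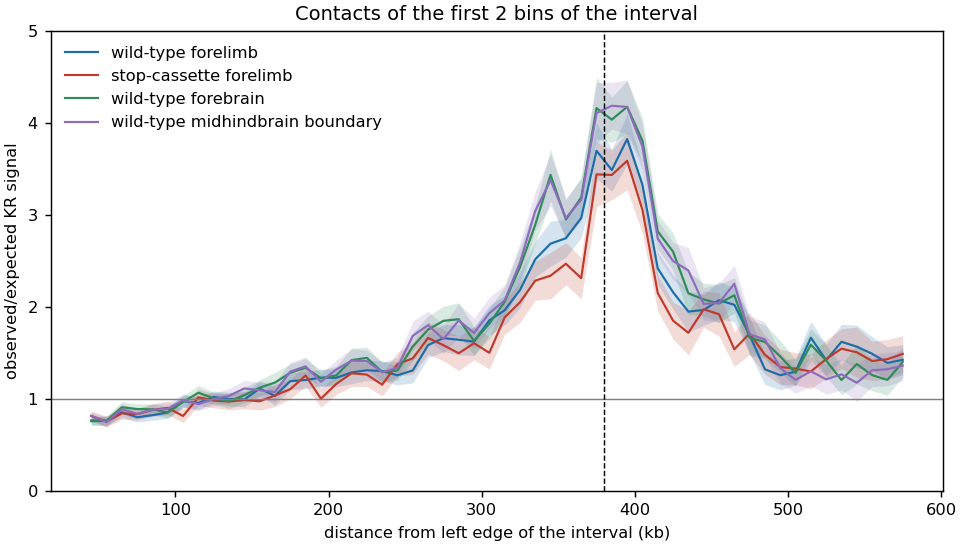
Observed/expected KR signal between the first 2 bins of the interval and each bin to the right, against the bin's distance from the left edge in kb, 1 line per map, with bands for the 95% counting interval; the dashed line is the end of the interval at 380 kb. All 4 maps peak between 370 and 410 kb, with both brain maps above the limb maps at the peak.

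Between its edges the interval showed no further boundary. Insulation scores (the mean KR signal of a square that spans a bin edge, as log2 over the average of such squares) with a 100 kb square had 0 internal minima at least 0.1 deep in any map, and the highest score lay at 121140 in both limb maps and at 121220 in both brain maps. Bins ordered by the mean of their pair ratios with the rest of the interval put bins near the edges first. Bins near the edges have more far partners, so this order is not independent of the climb with distance. The bin 120990 was highest in all 4 maps, at 1.59 in wild-type limb, 1.48 in stop-cassette limb, 1.7 in forebrain and 1.66 in midhindbrain, followed over the 4 maps by 121000 and 121310. The lowest 3, 121210, 121170 and 121140, are all in the middle, with levels from 1.01 to 1.13 over the maps. As summed signal over summed distance means, 120990 and 121000 stayed high in wild-type limb, at 1.30 and 1.29. The first bin, 120980, was at 1.05 in that map, below the 1.06 of 121210, while in the other maps it was above 121210. Across the 630 pairs the log2 levels of 2 maps correlated at r of 0.902 to 0.958, highest between the brain maps and lowest between stop-cassette limb and forebrain. The pairs share bins and the climb with distance, so this is a description; among the 459 pairs under 200 kb r was 0.766 to 0.887.

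The stop-cassette limb map had weaker internal contacts than the wild-type limb map, more so at long range. Over the interval it was at 1.077 times expected (1.072 to 1.081) against 1.129 (1.125 to 1.133), a ratio of 0.953 and a log2 ratio of -0.069 (-0.077 to -0.060), or -0.12 with raw counts. The log2 ratio was -0.021 at 30 to 90 kb (-0.032 to -0.0091), -0.10 at 100 to 190 kb (-0.12 to -0.088) and -0.14 at 200 to 370 kb (-0.16 to -0.12), and the far band differed from the near band by -0.12 (-0.14 to -0.094). With raw counts the ratios of the near, middle and far bands were -0.077, -0.16 and -0.17. Of the 630 pairs, 463 (73.5%) had a negative log2 ratio, and the median of all members was -0.082. Over the 13848 pairs of the map from 30 to 370 kb with at least 50 contacts over both maps, 48.9% were negative and the median was 0.0052. Those pairs include the members and match them in range only, as the members lean to shorter distances. All 38 bins were lower in the stop-cassette map, 30 of them with an interval below 0. Each pair enters both of its bins, so the bins are not independent. Counts of bins, here and below, were not made over the rest of the map and have no share to stand beside. The bin that fell furthest in KR signal was 121320, near the right edge, at -0.17, and 121350 stood at -0.15. The weakest contrast was at 121040, at -0.011. In raw contacts with the interval, 121320 went from 8200 in wild-type limb to 6192 in stop-cassette limb. Bin 121040 went from 15357 to 10655, the larger relative fall, so the order of these bins depends on balancing. Bin ratios were not recomputed with raw counts over raw distance means. The maps also differ in strain tag, library series and number of libraries, and the part of these in the result was not tested.

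Wild-type limb in turn was below both brain maps. Against forebrain (1.174) its log2 ratio was -0.056 (-0.064 to -0.049), and against midhindbrain (1.162) it was -0.041 (-0.049 to -0.034). These comparisons share the wild-type limb map with the stop-cassette comparison and are not independent of it. At 200 to 370 kb the log2 ratio was -0.14 against forebrain (-0.16 to -0.12) and -0.10 against midhindbrain (-0.12 to -0.081), the latter -0.063 with raw counts. In the corner it was -0.19 against forebrain (-0.24 to -0.15) and -0.18 against midhindbrain (-0.22 to -0.13), and for stop-cassette over wild-type limb -0.15 (-0.20 to -0.094). The middle block ran the other way against forebrain, with wild-type limb higher by 0.042 (0.021 to 0.063), or 0.012 with raw counts.

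By pairs, 425 of 630 were lower in wild-type limb than in forebrain (median -0.062, beside -0.00015 over 13880 pairs) and 421 were lower than in midhindbrain (median -0.046, beside -0.0016 over 13883 pairs). By bins, 36 of 38 were lower than in forebrain and 35 of 38 were lower than in midhindbrain, with intervals below 0 for 29 and 22 bins and above 0 for none. The largest falls were at opposite ends: at 121350 against forebrain (-0.14) and at 120980 against midhindbrain (-0.16).

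The brain maps had the smallest log2 ratio of the 4 comparisons. Midhindbrain over forebrain had a log2 ratio of -0.015 (-0.023 to -0.0073) over the interval, -0.026 with raw counts, -0.040 at 200 to 370 kb (-0.058 to -0.021) and -0.019 in the corner, whose interval of -0.065 to 0.028 includes 0. Of 630 pairs 333 (52.9%) were lower in midhindbrain, beside 48.3% of 13873 pairs of the map, with a median of -0.0082 beside 0.0065. Of 38 bins 8 had an interval below 0 and 1, the first bin 120980, had one above 0. Across all bin pairs of the maps from 30 kb to 1 Mb, ratios varied by 1.3 to 1.58 times their counting variance in the 4 comparisons. That spread was taken on single pairs and holds differences between the maps as well as error. All these intervals cover counting error alone and may be too narrow as the error of a map, by an amount not measured for the summed levels.

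**Figure D4:**
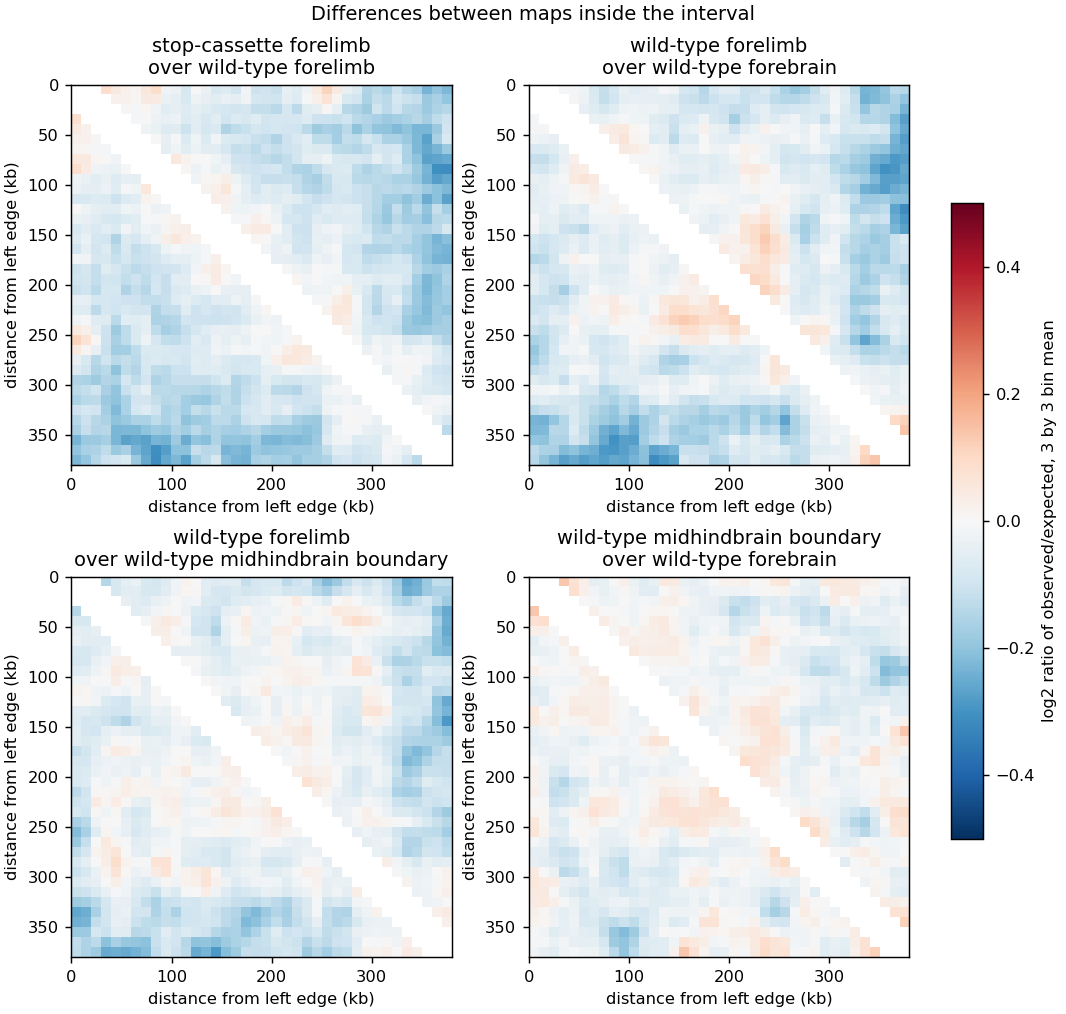
Log2 ratio of observed/expected KR signal for the interval's bin pairs at 30 kb or more in the 4 comparisons, averaged over 3 by 3 bins, both axes in kb from the left edge. Blue (lower in the first map) prevails along the right edge in the 3 comparisons that involve wild-type limb, and the comparison of the brain maps is the palest.

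Few single pairs differed strongly, and those that did involved the right end. The bins of the interval with the fewest contacts in the map lie there too. They were 121320 in wild-type limb (27579 contacts, median bin 44522) and 121350 in the other maps. Bin 121350 had 21546 contacts in stop-cassette limb (median 36419), 26802 in forebrain (45715) and 27375 in midhindbrain (45479.5). The part of low counts in the place of these pairs was not tested. A difference of at least 1.5-fold, with at least 50 contacts over both maps, was met by 1 of 630 members between stop-cassette and wild-type limb, where it is met by 6.35% of all bin pairs from 30 kb to 1 Mb and by 1.73% of those from 30 to 370 kb. It was met by 1 member between wild-type limb and forebrain (4.43% of all pairs, 1.53% at 30 to 370 kb), by 1 between wild-type limb and midhindbrain (5.26% and 1.62%) and by 0 between the brain maps (4.16% and 0.915%). Most differences of the interval were small and spread over many pairs, and the members' share past 1.5-fold lay below that of the map. The members lean to short distances and had at least 67 contacts in each map, where the rule asks for 50 over both maps. These shares are not matched for depth, so the lower share is not read as a trait of the interval. With raw counts over raw distance means, 5 members passed 1.5-fold between the limb maps, where 3.39% of all pairs from 30 to 370 kb did. By the same raw measure 1 member passed between wild-type limb and forebrain (1.93%), and 0 passed between wild-type limb and midhindbrain (2.12%) or between the brain maps (1.1%).

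The first of these 3 calls joined 121100 and 121340, 240 kb apart. It had 177 contacts in stop-cassette limb, 405 in wild-type limb, 393 in forebrain and 353 in midhindbrain, at levels of 0.926, 1.45, 1.44 and 1.33. Its log2 ratio between the limb maps was -0.64 (-0.90 to -0.39; exact binomial test on the reads of both maps, Benjamini-Hochberg adjusted p = 0.0044 over 35433 pairs), and the stop-cassette map alone was low. The other 2 calls were the same pair, 121110 and 121350, also 240 kb apart, with 135 contacts in wild-type limb, 93 in stop-cassette limb, 212 in forebrain and 180 in midhindbrain. Its levels of 0.949, 1.02, 1.68 and 1.43 set both limb maps below both brain maps. The log2 ratio was -0.83 against forebrain (-1.14 to -0.52; exact binomial adjusted p = 0.00029 over 35409 pairs) and -0.60 against midhindbrain (-0.92 to -0.27; exact binomial adjusted p = 0.049 over 35403 pairs).

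By the exact binomial test with no fold minimum, the members called were 1 in stop-cassette against wild-type limb (0.0762% of all pairs tested were called), 4 in wild-type limb against forebrain (0.381%), 3 against midhindbrain (0.681%) and 0 between the brain maps (0.224%). With a 2-fold minimum none of the members was called in any of the 4 comparisons (0.0282%, 0.0198%, 0.0621% and 0.0113% of all pairs). At an unadjusted p under 0.05 by the exact binomial test, 77 members differed between the limb maps (9.45% of all pairs), 69 of them lower with the cassette (4.16% of all pairs were). Between wild-type limb and forebrain 100 members did (8.97%), 83 of them lower in limb (4.65%). Against midhindbrain 67 members did (10.3%), 59 of them lower in limb (5.63%), and between the brain maps 43 did (7.21%), 28 of them lower in midhindbrain (3.63%). These tests compare the reads of merged maps and not the conditions. All pairs tested run from 30 kb to 1 Mb and have at least 20 contacts over both maps. Members lie within 370 kb and have at least 67 contacts in each map, so the shares are not matched for distance or power. With the variance inflated to the spread over all pairs, 1 member was called in wild-type limb against forebrain (0.0706% of all pairs tested). Under that variance 0 members were called between the limb maps (0% of all pairs), between wild-type limb and midhindbrain (0.0339%) and between the brain maps (0.0935%). The 3 lowest ratios of each comparison with wild-type limb all joined a bin from 120980 to 121110 with 1 of the bins from 121320 to 121350. For stop-cassette over wild-type limb the next after the called pair joined 121030 and 121330, with 115 against 238 contacts and a log2 ratio of -0.56 (-0.89 to -0.24; exact binomial adjusted p = 0.12). Over midhindbrain it was the corner pair 120980 and 121320 given above, with 232 against 321 contacts and a log2 ratio of -0.54 (-0.79 to -0.30; exact binomial adjusted p = 0.0073).

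The largest gains were smaller. Between stop-cassette and wild-type limb the highest ratio joined 120980 and 121190, with 166 against 180 contacts and a log2 ratio of 0.35 (0.045 to 0.65; exact binomial adjusted p = 0.45). Over forebrain the top ratio of wild-type limb, of 445 to 313 contacts, joined 121320 and 121350 (log2 ratio 0.34, 0.13 to 0.55; exact binomial adjusted p = 0.15), and over midhindbrain it joined 121100 and 121280, with 498 against 362 (log2 ratio 0.35, 0.15 to 0.54; exact binomial adjusted p = 0.063). Between the brain maps the extremes were 121140 and 121350, higher in midhindbrain with 124 against 92 contacts (log2 ratio 0.44, 0.055 to 0.83; exact binomial adjusted p = 0.62), and 121070 and 121330, lower with 259 against 364 (log2 ratio -0.45, -0.68 to -0.22; exact binomial adjusted p = 0.056). None of these 4 gains passed the threshold.

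The left edge fell on 120980 in all 4 maps, though its depth differed. With a 200 kb square it scored -0.71 in wild-type limb, -0.52 in stop-cassette limb, -0.65 in forebrain and -0.56 in midhindbrain. The lowest score of the right edge moved over 30 kb. With a 200 kb square the minimum was at 121350 in stop-cassette limb, 121360 in wild-type limb and 121380 in both brain maps. The dip is shallow. Forebrain scored -0.46, -0.48 and -0.49 at 121350, 121360 and 121380, midhindbrain -0.39, -0.42 and -0.44, wild-type limb -0.46, -0.48 and -0.44, and stop-cassette limb -0.48, -0.46 and -0.40, each with a counting SE of at most 0.0065. Between 4 and 6 neighbouring bin edges lay within 0.05 of the minimum in each map. With a 100 kb square the minimum was at 121360 in all 4 maps, so the shift in position depends on the size of the square. What differs is the tilt of the dip: from 121350 to 121380 the score rose by 0.076 in stop-cassette limb and by 0.015 in wild-type limb, and fell by 0.033 in forebrain and by 0.045 in midhindbrain.

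The balance of contacts to the left and to the right set the maps in a like order. The balance is the log2 ratio of the mean observed/expected signal with bins 30 to 200 kb to the left over that to the right. At 121350, the last member, it was -0.21 in stop-cassette limb, 0.042 in wild-type limb, 0.20 in forebrain and 0.19 in midhindbrain. Its counting SE was at most 0.041. At 121360, just outside, it was -0.32, -0.11, 0.056 and 0.10 in the same order. Near the right edge, the first bin where this ratio fell below 0 was 121350 in stop-cassette limb, 121360 in wild-type limb and 121380 in both brain maps. At the bin before, wild-type limb (0.042, SE 0.034) and forebrain (0.024, SE 0.031) did not differ from 0 beyond counting error. At the left edge the change was abrupt, from 0.96 at 120970, just outside, to -0.14 at 120980 in wild-type limb, from 0.90 to 0.017 in stop-cassette limb, from 1.01 to -0.061 in forebrain and from 0.77 to -0.12 in midhindbrain. Past the right edge the level of a bin with the interval, here the mean of its pair ratios, fell over several bins. In wild-type limb it was 1.33 at 121350, 1.26 at 121360, 1.14 at 121380 and 0.990 at 121390. The levels at 121360 were 1.16 in stop-cassette limb, 1.40 in forebrain and 1.42 in midhindbrain, and at 121390 they were 0.843, 1.03 and 1.07. As summed signal over summed distance means the levels were lower. At 121360 that level was 1.04 in wild-type limb, 0.972 in stop-cassette limb, 1.12 in forebrain and 1.14 in midhindbrain. At 121380 it was 0.956, 0.931, 1.05 and 1.09 in the same order, so only the brain maps stayed above the distance mean there. On the left the mean of the pair ratios changed within 1 bin, from 0.872 at 120970 to 1.34 at 120980 in wild-type limb, 0.863 to 1.29 in stop-cassette limb, 0.938 to 1.48 in forebrain and 1.02 to 1.54 in midhindbrain. As summed signal over summed distance means, the level rose from 0.718 to 1.05 in wild-type limb and from 0.730 to 1.04 in stop-cassette limb. In forebrain it rose from 0.759 to 1.15 and in midhindbrain from 0.824 to 1.18. By the sums the bin just outside the left edge was below the distance mean in every map. By the mean of ratios it was above it in midhindbrain.

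**Figure D5:**
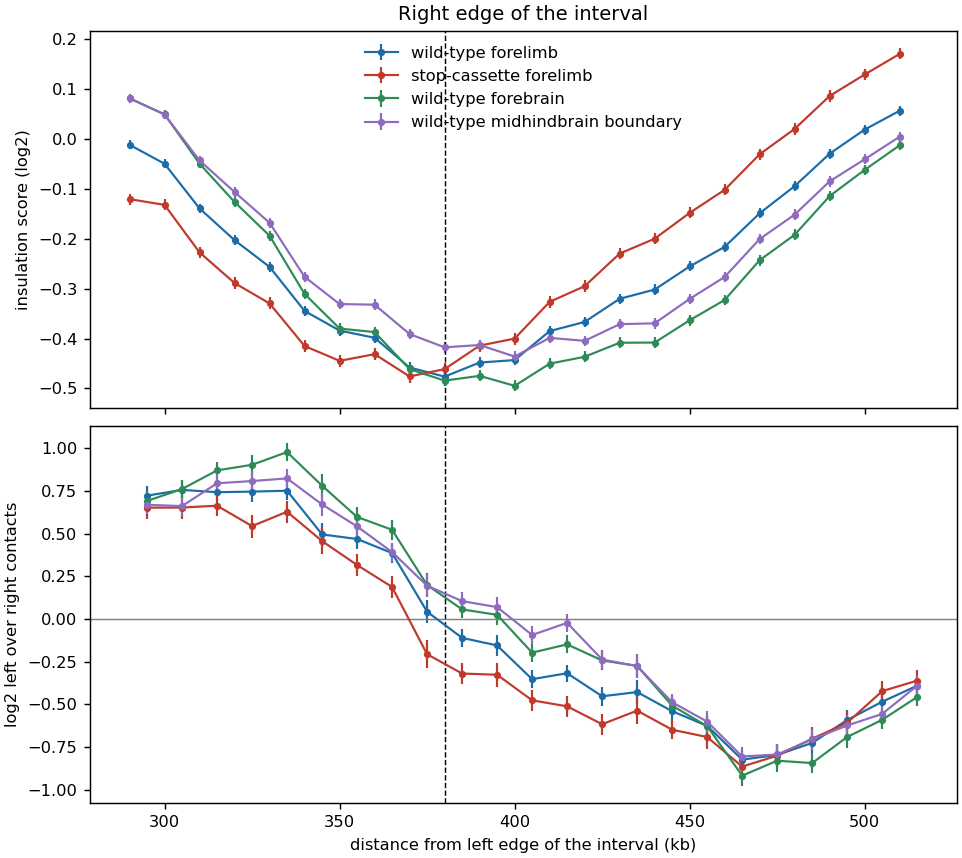
Insulation score with a 200 kb square (top) and left over right balance (bottom) around the right edge, against distance from the left edge in kb. The balance is the log2 ratio of mean observed/expected signal with bins 30 to 200 kb to the left over that to the right. There is 1 line per map, with bars for 95% counting intervals, and the dashed line is the end of the interval. The stop-cassette map has the lowest of the 4 scores at 370 kb (-0.48) and the highest at 400 kb (-0.40).

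The change between maps was set against that of the neighbouring regions. The Gli2 gene body domain on its left (120670 to 120980 kb) had a log2 ratio of -0.051 between stop-cassette and wild-type limb (-0.060 to -0.042), against -0.069 for the interval, a difference, interval minus neighbour, of -0.018 (-0.030 to -0.0052). The region on its right (121390 to 121910 kb) stood at 0.018 (0.0097 to 0.026), a difference of -0.087 (-0.098 to -0.075). Raw counts moved the interval's ratio here from -0.069 to -0.12, and the neighbours were not recomputed with raw counts. The counting intervals of these differences do not cover such a move. Against forebrain the left domain was higher in wild-type limb, at 0.019 (0.010 to 0.027), and differed from the interval by -0.075 (-0.086 to -0.063), while the right region, at 0.0011, differed from it by -0.057 (-0.068 to -0.046). Against midhindbrain the differences were -0.081 (-0.092 to -0.069) and -0.044 (-0.055 to -0.033) in the same order, and between the brain maps 0.0058 (-0.0057 to 0.017) and -0.013 (-0.024 to -0.0024).

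Contacts across the edges were weaker than the distance mean in all 4 maps. With the left domain the interval was at 0.805 times expected in wild-type limb, 0.848 in stop-cassette limb, 0.866 in forebrain and 0.891 in midhindbrain. With the right region it was at 0.830, 0.860, 0.785 and 0.810. The stop-cassette map thus exceeded wild-type limb across both edges, by 0.076 (0.065 to 0.086) and 0.050 (0.040 to 0.061) on the log2 scale, while inside the interval it was lower. By KR balancing a lower level inside is met by a higher level elsewhere, so these are not separate observations. Levels across the edges and with the En1 domain were not recomputed with raw counts. The brain maps exceeded wild-type limb across the left edge, as inside, and were below it across the right. With the En1 domain (122470 to 123080 kb), the domain of engrailed-1, the interval was at 1.03 in stop-cassette limb (1.02 to 1.04), 0.913 in wild-type limb (0.903 to 0.923), 0.869 in forebrain and 0.754 in midhindbrain.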

How the data were processed

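Capture Hi-C was measured in 11 libraries, and the authors deposited 1 raw and 1 KR map for each of the 4 groups, with replicates merged. In the raw maps the deposited values are contact counts for pairs of 10 kb bins; in the KR maps they are the balanced signal that the authors derived from these. Map names record HiCUP and a mapping quality of 30, and the submitters' processing notes list Bowtie2 2.3.4.1, Juicer 1.7.6 and mm9, with no role given. Unlisted pairs were read as 0. It was checked that KR signal equals count divided by 1 factor per bin.

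Values were computed in Python 3.11.15 (numpy 2.4.6, scipy 1.17.1). Levels are summed KR signal over the summed distance means. Levels of single bins with the interval are means of the pair ratios unless stated, and bin ratios between maps use the sums. The 95% intervals follow from Poisson counts with KR factors held. Depth ranged from 7662227 to 9523316 contacts a map. The fold rule needed 1.5-fold and 50 contacts over both maps; the exact binomial test (20 contacts, 30 kb to 1 Mb, Benjamini-Hochberg) set the expected share by distance and KR factors. edgeR was not used, as merged maps leave no replicates. Scripts were tested on simulated data.

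Named pairs were the 5 highest and 3 lowest by mean level over the maps and, per comparison, up to 3 extremes each way, of which the text gives those that bear on it. The interval, partners and tests were chosen with earlier results of these data known. Alternatives covered signal, distance, coverage, interval end, bin size and square.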

Additional observations from a re-analysis of the deposited data

How the results depend on the processing

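All 32 alternative values of the interval log2 ratio (8 settings, 4 comparisons) stayed below 0, and 22 lay within the counting interval of the reported value. Stop-cassette over wild-type limb was -0.12 with raw counts, -0.086 from 50 kb, -0.056 from 20 kb and -0.057 with distance medians. Wild-type limb over forebrain was -0.075 from 50 kb and -0.045 from 20 kb; over midhindbrain it was -0.052 from 50 kb, -0.032 from 20 kb and -0.049 with the interval ended at the bin 121370. Midhindbrain over forebrain was -0.026 with raw counts. With raw counts the ratios at 200 to 370 kb were -0.17 for stop-cassette over wild-type limb, -0.12 for wild-type limb over forebrain and -0.063 over midhindbrain. At 30 to 90 kb they were -0.077, -0.028 and -0.022, and midhindbrain over forebrain went from 0.0086 to -0.0056; at 100 to 190 kb stop-cassette over wild-type limb was -0.16. Of the 28 position-block ratios with raw counts 18 stayed within their counting interval and 26 were below 0; 3 changed sign, midhindbrain over forebrain from 0.0069 to -0.016 within the left block and from 0.0027 to -0.0053 within the right, and wild-type limb over midhindbrain from 0.014 to -0.0033 within the middle. The cause of these moves was not tested.

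Members past the fold limit numbered 0 in the 3 comparisons with wild-type limb at 2-fold and with 20 kb bins; with raw counts they numbered 5 for stop-cassette over wild-type limb and 0 for wild-type limb over midhindbrain. Members called by the exact binomial test numbered 0, 1 and 0 in these comparisons with the inflated variance, which was added after seeing the data. The right edge lay at 121360 in the other 3 maps too with a 100 kb square; with a 300 kb square it lay at 121380 in wild-type limb and 121400 in midhindbrain. The highest single pair, also added later, put it at 121350 in wild-type limb, 121370 in stop-cassette limb and forebrain and 121360 in midhindbrain, and the highest 3 by 3 mean at 121360. No paired analysis was possible because each group was deposited as 1 merged map, and no library could be left out. With 20 kb bins the least distance was 40 kb.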
